A study of Mus musculus with 63 samples.

Results

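The libraries described here are 6 RNA-Seq libraries of mouse small intestinal organoids that received the vehicle EtOH and were collected at day 3 or day 5, with 3 libraries at each day, out of 63 samples in the series. They were taken as the EtOH libraries of these days in the time course, so no measured value chose them. The organoids came from C57BL/6 mice with the VillinCreERT2 transgene, floxed Cdk8 (Cdk8 fl/fl) and Cdk19 alleles labelled ko/ko, and were grown in Matrigel with EGF, Noggin- and R-Spondin-conditioned media, N-acetylcysteine, N2 and B27. EtOH (0.001%) was given for 24 h and the medium was then replaced, while parallel cultures of the same line received 100 nM 4-OHT, which activates the epithelium-restricted Cre to delete Cdk8. EtOH organoids thus keep the floxed Cdk8 gene but carry the Cdk19 ko/ko alleles, so they are not wild type, and both days share this background. The 6 EtOH libraries of days 7 and 10 and the 6 4-OHT libraries of days 3 and 5 were used for comparison. The labels do not say whether libraries of a group came from separate mice or cultures, so p-values measure the spread between libraries of a group, which may be technical. That spread was estimated over all 24 libraries of the time course, EtOH and 4-OHT at days 3, 5, 7 and 10.

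Small intestinal organoids are epithelial cultures in which Lgr5-expressing stem cells renew the tissue and give rise to absorptive enterocytes and to secretory Paneth, goblet, enteroendocrine and tuft cells. Between passages they enlarge and bud, and enterocytes pass from a crypt-like state to a villus-like state in which genes of nutrient absorption, lipid export and detoxification are expressed. NRF2, a transcription factor held at low level by KEAP1, binds antioxidant response elements and drives genes of glutathione synthesis, NADPH supply and xenobiotic conjugation. Enterocytes also use such conjugating enzymes on compounds from the diet.

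Totals ran from 18369427 to 18558109 counts at day 3 and from 19398102 to 20884794 counts at day 5, over 54752 genes of which 15447 passed the filter on low counts. Pearson's r of log2 CPM (read counts scaled to library size) across genes was 0.992 to 0.993 within day 3, 0.989 to 0.990 within day 5 and 0.976 to 0.986 between days. The 12 markers of intestinal epithelium summed to 11910 to 12740 CPM at day 3 and 11660 to 12480 CPM at day 5, and none of the 12 was a differentially expressed gene (DEG). Of markers of other cell types, 4 of 15 immune, 4 of 14 mesenchymal and 3 of 8 endothelial genes passed the filter. They summed to 8.75 to 10.8 and 7.34 to 7.91 CPM for immune, 4.16 to 5.10 and 4.07 to 4.66 CPM for mesenchymal, and 4.97 to 6.53 and 3.14 to 4.6 CPM for endothelial genes, at day 3 and day 5 respectively. Within the mesenchymal sum, Col1a1, a collagen of fibroblasts, had 0, 1 and 1 counts at day 3 and 17, 11 and 11 counts at day 5. These groups did not overlap (log2 fold change 4.00, edgeR adjusted p = 0.244). The spread in that test comes from all 24 libraries, including EtOH day 7 replicate 2 with 531 counts, and its part in the p-value was not tested. Pancreas markers, of which 3 of 8 passed the filter, summed to 18.8 to 22.4 CPM at day 3 and 25.7 to 34.7 CPM at day 5. Ptprc, Cd3e, Col3a1, Dcn, Pecam1 and Cdh5 were among the markers that did not pass.

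The EtOH libraries of day 3 and day 5 stood apart in mitochondrial transcripts, and this touches every comparison between them. mt-Atp6, a subunit of the mitochondrial ATP synthase, was at 24.4 to 35.7 CPM in the 9 libraries of EtOH day 3, 4-OHT day 3 and 4-OHT day 5. It was at 4.10 to 8.24 CPM in the 9 libraries of EtOH day 5, EtOH day 7 and 4-OHT day 7, and at 0.194 to 0.877 CPM in the 6 libraries of day 10. The summed level of 6 pseudogene copies of mitochondrial genes on chromosome 1, chosen after their values were seen, gave the same sets. It was 99.2 to 125 CPM, 16.1 to 28.4 CPM and 1.93 to 3.80 CPM. Nuclear copies are near-identical to mitochondrial genes and may share their reads, so this sum is not a separate check. The share of counts from the mitochondrial chromosome was 3.92 to 5.572%, 2.511 to 3.697% and 1.496 to 1.961% in the 3 sets. The first 2 sets lay close together on this measure, without overlap. At EtOH day 3 and day 5 the share was 3.92 to 5.394% and 2.511 to 2.802%. These sets were defined here from the values, and the labels give no batch. Day 3 and day 5 of EtOH fall wholly in different sets. The difference between these days and the difference between the sets therefore cannot be told apart. A fit with a mean for each group leaves no room for the set as a term, and a fit with treatment, day and set as additive terms was not run. The step from day 3 to day 5 lies within a set only in 4-OHT organoids, which by the study's design lose Cdk8, so their values are given beside many of those of EtOH. The plot of mitochondrial transcripts by library shows the 3 sets.

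**Figure D1:**
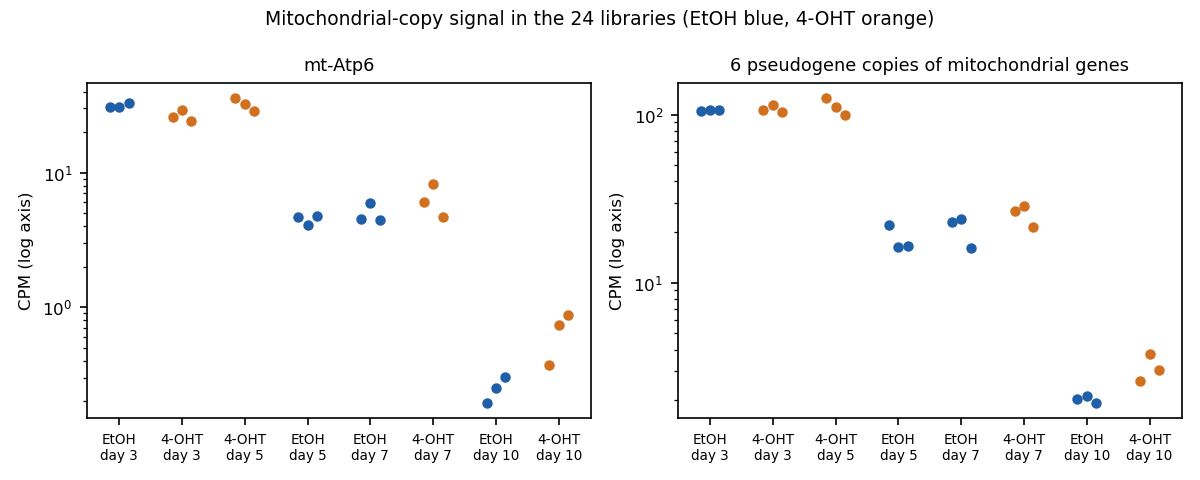
Level of mt-Atp6 and summed level of 6 pseudogene copies of mitochondrial genes (CPM, log axis) in each of the 24 time course libraries, by treatment and day. EtOH day 3 sits with both 4-OHT groups of days 3 and 5 (mt-Atp6 24.4 to 35.7 CPM), EtOH day 5 with the day 7 groups (4.10 to 8.24 CPM), and the day 10 libraries lie lowest (0.194 to 0.877 CPM).

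Between day 3 and day 5 the EtOH organoids had 1848 DEGs, 12% of the 15447 genes tested, with edgeR's quasi-likelihood test (adjusted p < 0.05 and fold change over 1.5). Of these, 436 (2.82%) were higher and 1412 (9.14%) lower at day 5, so that 23.6% of DEGs were higher. With cyclic loess normalization, which removes a trend of the change with expression level, 43.9% were higher. At the adjusted p alone 5551 genes passed. In 3540 genes (22.9%) every day 5 library lay above every day 3 library and in 3568 (23.1%) below, and the median log2 fold change of all genes was -0.003. The balance of rises and falls followed the level of expression. Among 2475 genes under 1 CPM the median log2 fold change was -0.46, with 40 rises and 444 falls, whereas among 2330 genes over 100 CPM it was 0.15, with 76 rises and 31 falls. In 4-OHT organoids the medians of these classes were -0.23 and 0.16. Long noncoding genes and unconfirmed transcripts made up many of the falls, with 434 of 1527 lower and 33 higher, while 758 of 12248 protein-coding genes were lower and 380 higher. Among the 9880 protein-coding genes of at least 5 CPM, 281 rose and 345 fell.

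**Figure D2:**
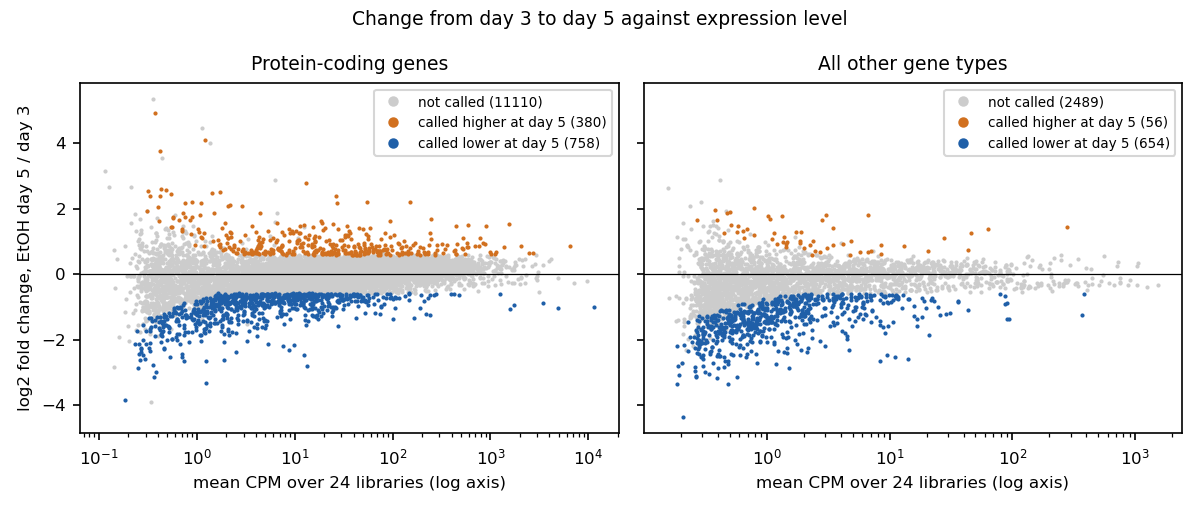
Log2 fold change of EtOH day 5 against day 3 (vertical axis) by mean CPM over the 24 libraries (log axis), 1 point per gene, for protein-coding genes and all other gene types, with DEGs (called genes) in orange where higher and blue where lower. Blue points gather at low expression, most densely in the genes that are not protein coding, of which 654 were lower and 56 higher.

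Of the gene lists examined, NRF2 targets held the most rises. Of its members, 18 of 20 were DEGs with higher values at day 5 and none was lower, against 2.82% of all genes that rose. The median log2 fold change of the list was 0.90, against -0.003 over all genes, and 19 of 20 members had every day 5 library above every day 3 library, against 22.9% of all genes. In 4-OHT organoids, where 22.2% of genes were DEGs, 12 of the 20 rose and 2 fell (median 0.71). The number of members that rose in EtOH organoids was 14 with cyclic loess normalization and 17 to 19 when a library was left out. In a bulk sample, a change in the number of cells of a type and a change in RNA per cell cannot be told apart.

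The promoters of the list were searched for the core of the antioxidant response element, TGACNNNGC, on both strands in the 250 bases before each RefSeq start (GRCm38.p6). Of 17 members with a promoter in the table, 5 held a match (29.4%), as did 3338 of 32851 promoters (10.2%) and 3112 of 27025 gene symbols (11.5%). Me1, Slc7a11, Gstm1 and Gstm3 held no match, and Hmox1 had no promoter in the table. Whether NRF2 acted on any member was not tested. The matches are shown with 30 bases on either side, in the direction of the gene, with the matched letters in capitals. The windows are Gclm at chr3:122245393-122245461 (plus strand), G6pdx at chrX:74428899-74428967 (minus), Gsta3 at chr1:21240434-21240502 (plus), Txnrd1 at chr10:82859084-82859152 (plus), and Ugdh at chr5:65435936-65436004 and chr5:65435898-65435966 (minus), which overlap each other. Matches in Gclm, G6pdx, Txnrd1 and the second of Ugdh read as the reverse complement.
Gclm: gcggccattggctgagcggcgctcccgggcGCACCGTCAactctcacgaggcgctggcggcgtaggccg
G6pdx: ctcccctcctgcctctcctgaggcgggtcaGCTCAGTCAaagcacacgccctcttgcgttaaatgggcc
Gsta3: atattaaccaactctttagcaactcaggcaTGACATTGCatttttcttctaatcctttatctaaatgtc
Txnrd1: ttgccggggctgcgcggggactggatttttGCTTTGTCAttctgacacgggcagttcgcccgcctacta
Ugdh, first: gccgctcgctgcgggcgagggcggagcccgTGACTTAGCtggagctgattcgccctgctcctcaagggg
Ugdh, second: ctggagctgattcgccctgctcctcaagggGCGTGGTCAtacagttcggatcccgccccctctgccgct
A match describes the letters of this window only, and no match in the other members says nothing of NRF2 binding there.

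Among the NRF2 targets with a match, Ugdh, which makes UDP-glucuronic acid for conjugation, was at 235, 229 and 238 CPM at day 3 and at 430, 563 and 518 CPM at day 5 (log2 fold change 1.11 ± 0.08 SE, edgeR adjusted p = 2.2e-11). Every day 5 library lay above the day 3 libraries, and the change was 1.23 in 4-OHT organoids. Txnrd1, thioredoxin reductase, rose from 170, 166 and 166 CPM to 253, 266 and 286 CPM (0.68 ± 0.06, edgeR adjusted p = 6.1e-09), with a log2 fold change of -0.08 in 4-OHT organoids. The difference between these changes passed the test (0.76, edgeR adjusted p = 1.5e-07). Gclm, the modifier subunit of glutathione synthesis, G6pdx, which supplies NADPH, and Gsta3, a glutathione S-transferase, rose by log2 fold changes of 0.64, 0.64 and 0.61.

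The largest rise of the list was that of Me1, the cytosolic malic enzyme that makes NADPH, located on chromosome 9 from 86581371 to 86695953 on the minus strand (GRCm38). It was at 6.05, 6.48 and 6.76 CPM at day 3 and at 28.2, 47.4 and 25.6 CPM at day 5 (2.39 ± 0.32, edgeR adjusted p = 3e-05). The day 3 libraries were close together, and the day 5 libraries spread over a wider range without reaching them. The change in 4-OHT organoids was smaller, 0.83 (difference 1.56, edgeR adjusted p = 0.01). Hmox1, heme oxygenase, on chromosome 8 from 75093621 to 75100589 on the plus strand, went from 7.51, 7.33 and 7.98 CPM to 20.1, 22.7 and 27.1 CPM (1.62 ± 0.14, edgeR adjusted p = 1.3e-09). In 4-OHT organoids it was already at 22.7, 21.6 and 18.8 CPM at day 3 and fell to 11.7, 11.6 and 14.7 CPM at day 5, and the changes differed by 2.35 (edgeR adjusted p = 1.5e-10). Slc7a11, the cystine importer that feeds glutathione synthesis, went from 4.43, 6.43 and 7.34 CPM to 13.0, 12.9 and 27.8 CPM (1.56 ± 0.30, edgeR adjusted p = 0.0006). It too fell in 4-OHT organoids, by 1.38 on the log2 scale, and the difference passed the test.

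Gstm1, a glutathione S-transferase of the mu class on chromosome 3 from 108012255 to 108017973, was at 399, 336 and 452 CPM at day 3 and at 1161, 1137 and 1060 CPM at day 5 (1.5 ± 0.12, edgeR adjusted p = 2.6e-08), and the same step gave 1.16 in 4-OHT organoids. Gstm3 rose by 1.47 in EtOH and 1.37 in 4-OHT organoids. The alpha class genes Gsta1 and Gsta2 rose by 0.84 and 0.89 in EtOH organoids and by 2.03 each in 4-OHT organoids, and these differences passed the test. Members of both classes are close paralogs, so reads may be divided among them and their separate values are uncertain. The 2 members that were not DEGs, Osgin1 and Gsta4, had log2 fold changes of 0.53 and 0.26. The plot of NRF2 targets sets the change in EtOH against that in 4-OHT organoids.

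**Figure D3:**
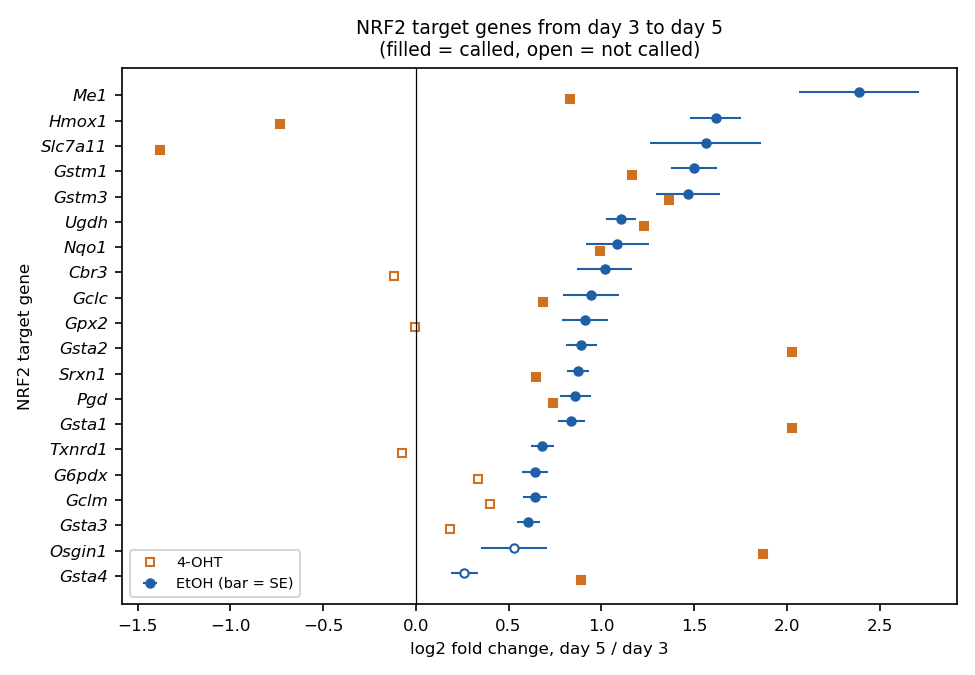
Log2 fold change of day 5 against day 3 for the 20 NRF2 targets in EtOH (circles, bars of 1 SE) and in 4-OHT organoids (squares), filled where a DEG and open where not. All 20 lie above 0 in EtOH organoids, from 0.26 (Gsta4) to 2.39 (Me1), while Hmox1 (-0.73) and Slc7a11 (-1.38) lie below 0 in 4-OHT organoids.

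Enterocyte genes of lipid handling rose in part. Over all genes 2.82% rose in EtOH and 9.88% in 4-OHT organoids. Of 19 tested genes of lipid uptake and chylomicron assembly 8 rose and none fell in EtOH organoids (median 0.52), whereas 18 rose in 4-OHT organoids (median 1.54). Apoa4, an apolipoprotein of chylomicrons on chromosome 9 from 46240696 to 46243459, was at 344, 335 and 354 CPM at day 3 and at 768, 1113 and 960 CPM at day 5 (1.46 ± 0.17, edgeR adjusted p = 4.2e-06), with 0.93 in 4-OHT organoids. The day 3 libraries were close together and all below day 5. Fabp1, a fatty acid binding protein, went from 201, 194 and 189 CPM to 386, 575 and 281 CPM (1.09 ± 0.19, edgeR adjusted p = 0.00029). Apob, Rbp2, Creb3l3, Dgat2, Mttp and Fabp2 rose by 0.94, 0.93, 0.90, 0.73, 0.67 and 0.63. Rbp2 rose by 2.56 in 4-OHT organoids and Fabp2 by 2.09, and both differences from EtOH passed the test.

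Of 20 transporters 3 rose (Slc2a5, Slc6a19 and Slc34a2) and 2 fell (Slc15a1 and Slc28a2), with a median of 0.24, beside 2.82% of all genes that rose and 9.14% that fell. Slc28a2 was not a DEG with cyclic loess or without day 3 or day 5 replicate 2 (-1.04 each), and 5 transporters rose without day 5 replicate 3. Of 21 brush border genes 2 rose (Alpi and Mgam) and Enpp3 fell, with a median of 0.13 that was -0.005 with cyclic loess normalization. The number of brush border genes that rose was 1 without day 3 replicate 1, and 4, 0 and 5 without day 5 replicates 1, 2 and 3. Enpp3 (-0.69) was not a DEG with cyclic loess (-0.45) or without day 3 replicate 3 (-0.57). In 4-OHT organoids 12 transporters and 18 brush border genes rose, beside 9.88% of all genes. Slc2a5, the fructose transporter GLUT5, on chromosome 4 from 150119283 to 150144169, was at 55.0, 43.5 and 56.8 CPM at day 3 and at 159, 360 and 199 CPM at day 5 (2.21 ± 0.28, edgeR adjusted p = 2e-05), with 2.56 in 4-OHT organoids, where day 3 was lower (14.7, 15.7 and 13.1 CPM). Slc6a19, a neutral amino acid transporter, went from 29.2, 23.6 and 25.2 CPM to 59.4, 130 and 49.4 CPM (1.61 ± 0.38, edgeR adjusted p = 0.0034), and in 4-OHT organoids from 8.10, 8.82 and 5.69 CPM to 86.4, 83.1 and 122 CPM. The second day 5 library was the highest for Slc2a5, Slc6a19, Fabp1, Apob and Alpi, so the day 5 group was not uniform in these genes. Slc15a1, the peptide transporter, fell from 7.56, 7.12 and 7.08 CPM to 4.06, 3.59 and 4.37 CPM (-0.85 ± 0.21, edgeR adjusted p = 0.0027). Sis, sucrase-isomaltase, was at 2635, 2625 and 2876 CPM at day 3 and at 3071, 4342 and 2640 CPM at day 5, groups that overlap (0.31, edgeR adjusted p = 0.19), against 1.84 in 4-OHT organoids. Alpi, intestinal alkaline phosphatase, was a DEG at 0.83, but not without day 5 replicate 2 (0.64, edgeR adjusted p = 0.067).

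Xenobiotic and retinoid enzymes rose in 9 of 31 genes with no fall (median 0.42), beside 2.82% of all genes, and in 27 of 31 in 4-OHT organoids (median 1.46), beside 9.88%. Cyp2b10, a cytochrome P450 regulated by the receptor CAR, went from 117, 87.5 and 123 CPM to 311, 381 and 360 CPM (1.68 ± 0.23, edgeR adjusted p = 3.9e-05), and by 3.19 in 4-OHT organoids. The day 5 libraries were close to each other and all above the day 3 libraries. Aldh1a1, which makes retinoic acid, rose by 0.97, Cyp3a11 by 0.96, Cyp2c66 by 0.92 and Ugt2b5 by 1.08. For all 4 the rise in 4-OHT organoids was larger and the difference passed the test. The number that rose was 6 to 11 over the alternatives.

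Villus tip and late enterocyte genes rose in 7 of 15 tested genes and fell in 1 (median 0.65), beside 2.82% and 9.14% of all genes. In 4-OHT organoids 4 rose and 5 fell (median -0.53), beside 9.88% and 12.3% of all genes. Cdkn1a, a cell cycle inhibitor, was at 472, 410 and 440 CPM at day 3 and 761, 860 and 756 CPM at day 5 (0.85 ± 0.09, edgeR adjusted p = 2.2e-07), against 0.16 in 4-OHT organoids (difference 0.68, edgeR adjusted p = 0.0002). Sprr1a, a cornified envelope protein, went from 30.9, 46.2 and 37.5 CPM to 81.2, 78.3 and 114 CPM (1.25 ± 0.28, edgeR adjusted p = 0.0025), but fell by 2.66 on the log2 scale in 4-OHT organoids. Sprr2a1, Sprr2a2 and Sprr2a3 rose by 0.96, 0.64 and 0.80, though they are near-identical copies whose reads may be divided. Krt20, a keratin of villus cells, rose by 0.65, but missed the fold cutoff under upper quartile normalization (0.58), with cyclic loess (0.50) and without day 3 replicate 2 (0.58) or day 5 replicate 2 (0.56). Neat1, a noncoding RNA of nuclear paraspeckles, was the fall, from 427, 604 and 597 CPM to 282, 170 and 236 CPM (-1.24 ± 0.26, edgeR adjusted p = 0.0014), against 0.19 in 4-OHT organoids.

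**Figure D4:**
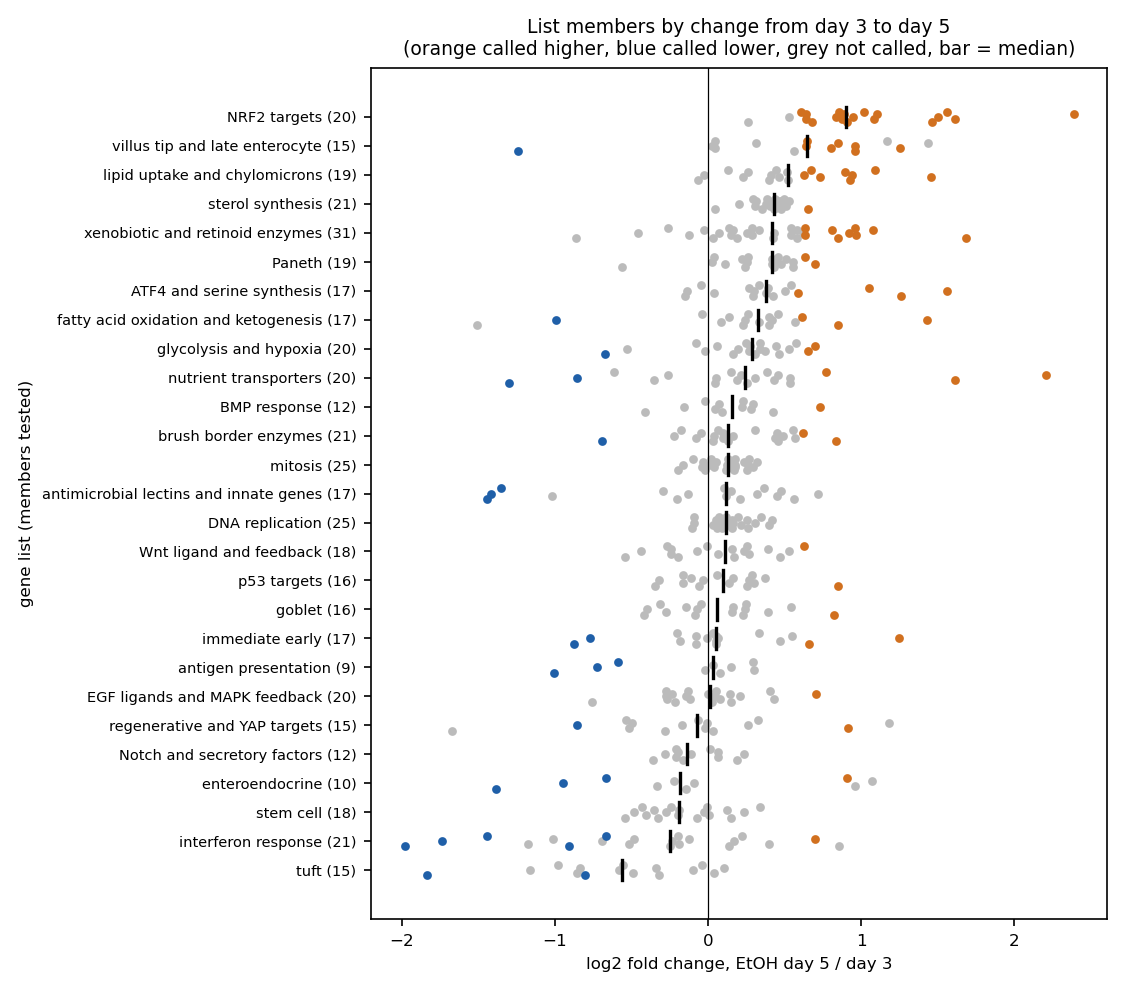
Log2 fold change of EtOH day 5 against day 3 for each tested member of the gene lists (1 point per gene, number of members in brackets), with DEGs (called) in orange where higher and blue where lower, others in grey, and a bar at the list's median. NRF2 targets have 18 of 20 called higher and the highest median of the lists plotted, 0.90, while the stem cell, DNA replication and mitosis lists hold grey points only.

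Stem cell and cell cycle genes held no DEG in EtOH organoids. None of 18 stem cell genes, 25 DNA replication genes or 25 mitosis genes was a DEG, beside 12% of all genes, with medians of -0.19, 0.12 and 0.13. In 4-OHT organoids 14, 21 and 18 of them fell, beside 12.3% of all genes. Lgr5, the stem cell receptor for R-spondin, was at 223, 252 and 221 CPM at day 3 and 167, 132 and 179 CPM at day 5 (-0.54 ± 0.13, edgeR adjusted p = 0.0031), below the cutoff on fold change but with groups that did not overlap. It passed the cutoff with upper quartile normalization (-0.61), with cyclic loess (-0.67) and without day 5 replicate 3 (-0.64). Lgr5 also passed with at least 10 counts in every library (-0.585) and among protein-coding genes of at least 5 CPM (-0.608). Olfm4 was at 1113, 1096 and 1114 CPM and at 1007, 1085 and 1597 CPM (0.15, edgeR adjusted p = 0.5), a spread at day 5 that covered day 3. Ascl2 (0.23), Axin2 (-0.01) and Mki67 (0.13) likewise had overlapping groups. Of the 18 stem cell genes, 13 had a log2 fold change below 0 and 5 above. In 8 of the 18 every day 5 library lay below day 3 and in 1 above, beside 23.1% and 22.9% of all genes. Lgr5, Olfm4, Ascl2 and Axin2 changed by -1.49, -1.20, -1.98 and -1.24 in 4-OHT organoids, and each of these differences from EtOH passed the test.

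Of 19 Paneth genes 2 rose (Lyz1 and Pla2g2a; 2.82% of all genes rose) and none fell, with a median of 0.42. Every day 5 library was above day 3 in 11 of the 19, as in 22.9% of all genes, whereas 15 fell in 4-OHT organoids, beside 12.3% of all genes. The Paneth genes that rose numbered 1 without day 5 replicate 1 or 2 and up to 3 over the left-out libraries, and 1 fell without day 5 replicate 1. Lyz1, lysozyme, was at 2074, 2493 and 1986 CPM at day 3 and at 3752, 3720 and 2711 CPM at day 5 (0.64 ± 0.11, edgeR adjusted p = 9.5e-05), and did not pass the fold cutoff under upper quartile normalization (0.57), with cyclic loess (0.42), or without day 3 replicate 3 or day 5 replicate 1 or 2. Pla2g2a, a gene of the secreted phospholipase family that the annotation gives as a polymorphic pseudogene, went from 21.3, 22.4 and 23.9 CPM to 37.2, 31.3 and 41.3 CPM (0.70 ± 0.12, edgeR adjusted p = 9.4e-05), against -2.09 in 4-OHT organoids. Wnt3, the Paneth cell Wnt ligand, was at 7.62, 7.70 and 8.99 CPM and at 11.1, 12.7 and 13.8 CPM (0.63 ± 0.12, edgeR adjusted p = 0.00025), against -1.13 in 4-OHT organoids, and was not a DEG under upper quartile normalization (0.56), or without day 3 replicate 1 or day 5 replicate 3. Of 16 goblet genes 1 rose, Fcgbp, a mucus protein, by 0.82 (2 rose without day 3 replicate 1 or day 5 replicate 1), while Muc2 had overlapping groups (0.25, edgeR adjusted p = 0.38).

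Of 10 tested of 27 enteroendocrine genes 3 fell (Neurog3, Pax4 and Rfx6) and Sct rose, with a median of -0.18. Over left-out libraries the median ran from -0.43 (without day 5 replicate 1) to -0.05 (without day 3 replicate 1). Over all alternatives it ran from -0.73 to 0.21, the latter with cyclic loess normalization. Of 15 tested of 21 tuft genes 2 fell, Sh2d6 and Trpm5, with a median of -0.56 that was -0.12 with cyclic loess, beside 9.14% of all genes that fell. Neurog3, the factor that starts the enteroendocrine lineage, went from 31.5, 26.7 and 26.5 CPM to 21.2, 12.5 and 19.6 CPM (-0.67 ± 0.17, edgeR adjusted p = 0.0035), but was -0.47 without day 5 replicate 2. Pax4 and Rfx6, later factors of that lineage, fell by 0.94 and 1.38 on the log2 scale, and Sct, secretin, rose by 0.91, though not without day 5 replicate 2 (0.60, edgeR adjusted p = 0.072). Sh2d6, a tuft cell adaptor, fell from 4.92, 5.84 and 6.33 CPM to 1.84, 1.62 and 1.32 CPM (-1.84 ± 0.24, edgeR adjusted p = 1.4e-06), and Trpm5, the tuft cell cation channel, by 0.80. Pou2f3, the tuft master regulator, had overlapping groups (-0.32, edgeR adjusted p = 0.22). Rfx6, Sct and Sh2d6 were under 10 CPM, where 444 of 2475, 390 of 1579 and 307 of 1961 genes fell in the classes under 1, 1 to 3 and 3 to 10 CPM, against 40, 64 and 83 rises.

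The regenerating islet-derived lectins, antimicrobial proteins of enterocytes and Paneth cells, fell in EtOH organoids. Reg3g, on chromosome 6 from 78466269 to 78468872, was at 207, 164 and 178 CPM at day 3 and at 89.1, 65.4 and 60.6 CPM at day 5 (-1.35 ± 0.24, edgeR adjusted p = 0.00039). Reg3b and Reg1 changed by -1.42 and -1.44, and all 3 had groups without overlap. In 4-OHT organoids Reg3g, Reg3b and Reg1 rose by 1.93, 3.45 and 2.87, and the differences of -3.28, -4.87 and -4.31 passed the test. Reg3g was at 27.1, 31.8 and 26.0 CPM at day 3 and 135, 114 and 73.8 CPM at day 5 there, so that its day 3 level was below that of every EtOH library of days 3 and 5. In EtOH organoids the 3 lectins were the falls among 17 tested genes of the antimicrobial list, with no rise (1 without day 3 replicate 1 or 3 or day 5 replicate 1 or 3), against 10 rises and 2 falls in 4-OHT organoids. Over all genes 9.14% fell in EtOH organoids, and 9.88% rose and 12.3% fell in 4-OHT organoids.

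Other metabolic and stress lists are given here, beside the 2.82% of all genes that rose and the 9.14% that fell. Of 17 ATF4 and serine synthesis genes 4 rose, namely Slc7a11, Chac1 (1.26), Trib3 (1.05) and Psat1 (0.59), against 1 rise and 8 falls in 4-OHT organoids, where 9.88% of all genes rose and 12.3% fell. Of 21 sterol synthesis genes 1 rose, Nsdhl (0.65, and 0.50 with cyclic loess, below the cutoff), but 20 had every day 5 library above day 3, as did 22.9% of all genes (median 0.43, and 0.28 with cyclic loess). Of 20 glycolysis genes 2 rose, Ldha (0.65) and Ero1l (0.70, and 0.56 without day 5 replicate 3), and Gapdh fell by 0.67 on the log2 scale, although its many processed copies make its count uncertain. Atf3, a stress-induced factor, rose from 4.64, 5.47 and 5.38 CPM to 10.7, 11.4 and 14.7 CPM (1.25 ± 0.18, edgeR adjusted p = 4.7e-06), and Areg, an EGF receptor ligand, by 0.92. Both fell in 4-OHT organoids, by 1.25 and 2.26 on the log2 scale. Of 21 interferon response genes 5 fell (Irf9 by 0.67, Oasl2 by 0.91, Rtp4 by 1.45 and Xaf1 by 1.74 on the log2 scale, and Oas2), but 3 fell without day 3 replicate 1 or 2 or day 5 replicate 3, and in 4-OHT organoids 3 rose and 3 fell. Oas2 was at 0.324, 0.584 and 0.160 CPM at day 3 and at 0.0541, 0.152 and 0.0491 CPM at day 5, too few counts for a fold to be given. It was not a DEG without day 3 replicate 1 or 2 or day 5 replicate 1 or 3 (edgeR adjusted p = 0.067, 0.25, 0.11 and 0.13). Oasl1 rose by 0.70, but was a DEG in just 1 of the 6 fits that left out a library, the one without day 5 replicate 2. Of 9 antigen presentation genes 3 fell, Psmb9 (-1.01), Tap1 (-0.73) and Tap2 (-0.59). Of 15 mitochondrially encoded genes 12 fell and none rose, against 2 falls in 4-OHT organoids, and mt-Atp6 among them defines the sets of libraries. Mitochondrial genes have near-identical nuclear copies, so their single values are uncertain.

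Other lists held few DEGs, and over all genes 2.82% rose and 9.14% fell. Of 17 immediate early genes Atf3 and Dusp1 (0.66) rose and Nr4a1 (-0.77) and Fosb (-0.88) fell, and the number that rose was 1 to 3 as libraries were left out (1 without day 5 replicate 1). Fosb was a DEG in just 1 of the 6 fits that left out a library, the one without day 3 replicate 3. Of the regenerative list Areg rose and Clu fell (-0.85), the latter not without day 3 or day 5 replicate 2 (-0.58 each), nor with the 12 EtOH libraries alone (edgeR adjusted p = 0.071) or the 6 libraries compared (0.099). Members of that list that fell numbered 2 without day 3 replicate 3 or day 5 replicate 1 or 3. Id3 (0.73, and not a DEG without day 3 replicate 1 or day 5 replicate 2) was the DEG among 12 BMP response genes and Dusp5 (0.71) that among 20 EGF genes, and none of 12 Notch genes was a DEG. Wnt3 was the DEG among 18 Wnt ligand and feedback genes, of which none rose without day 3 replicate 1 or day 5 replicate 3, and 2 and 3 without day 5 replicates 1 and 2. In 4-OHT organoids 13 of the 18 fell, beside 12.3% of all genes. Cdkn1a was the DEG among 16 p53 targets. Of pancreas markers 2 of 3 tested rose, Pnlip (1.57) and Ctrb1 (1.20).

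Of the 8 largest rises of protein-coding genes, Alb, serum albumin, was the first, with 4, 3 and 3 counts at day 3 and 55, 46 and 85 counts at day 5. It had 15 to 17 counts in 4-OHT day 3, 2 to 19 in 4-OHT day 5 and 16 to 24 in EtOH day 7. In 4-OHT day 7 it had 46 to 66 counts, and 8 to 18 in the libraries of day 10. The part of the library sets in its change was not tested. Nox1, a superoxide-producing oxidase, on chromosome X from 134086421 to 134221956, went from 1.19, 1.01 and 2.18 CPM to 7.04, 12.7 and 10.8 CPM (2.80 ± 0.43, edgeR adjusted p = 7.8e-05), against 0.33 in 4-OHT organoids. Tnfrsf23, a decoy receptor, went from 10.9, 12.8 and 16.4 CPM to 53.7, 90.7 and 39.7 CPM, and Enpp7, the brush border sphingomyelinase, from 8.96, 9.03 and 5.53 CPM to 20.9, 54.3 and 31.0 CPM. Akp3 (2.09) and Krtap3-1 (1.86) completed the rises beside Me1 and Slc2a5, and Akp3 was not a DEG without day 5 replicate 2 (1.46, edgeR adjusted p = 0.071).

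Of the 8 largest falls of protein-coding genes 4 were mitochondrially encoded, namely mt-Atp6 (-2.80), mt-Co2 (-2.48), mt-Atp8 (-2.39) and mt-Co3 (-2.17), which differ between the sets of libraries. Among the other 4, Slc6a7, a proline transporter, went from 19.3, 32.3 and 27.6 CPM to 6.55, 3.59 and 5.84 CPM (-2.31 ± 0.21, edgeR adjusted p = 3.7e-08), against -0.55 in 4-OHT organoids. Depp1, Gabbr1 and BC051142 fell by 2.20, 2.14 and 2.06 on the log2 scale. Of 8 markers of the distal small intestine 1 rose and 1 fell (median 0.31), beside 2.82% and 9.14% of all genes. Fgf15, the ileal hormone that represses bile acid synthesis, on chromosome 7 from 144896531 to 144900953, fell from 40.1, 38.9 and 39.2 CPM to 19.1, 12.8 and 12.8 CPM (-1.41 ± 0.21, edgeR adjusted p = 4.3e-05). In 4-OHT organoids Fgf15 was at 14.3, 18.1 and 9.89 CPM at day 3 and at 10.2, 9.82 and 6.18 CPM at day 5. Slc10a2, the ileal bile acid transporter, rose by 0.61 in EtOH organoids, but no marker of this list rose under upper quartile normalization or without day 3 replicate 2, and 2 rose without day 3 replicate 3 or day 5 replicate 1. The plot of values by library shows Me1, Slc2a5, Reg3g and other named genes.

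**Figure D5:**
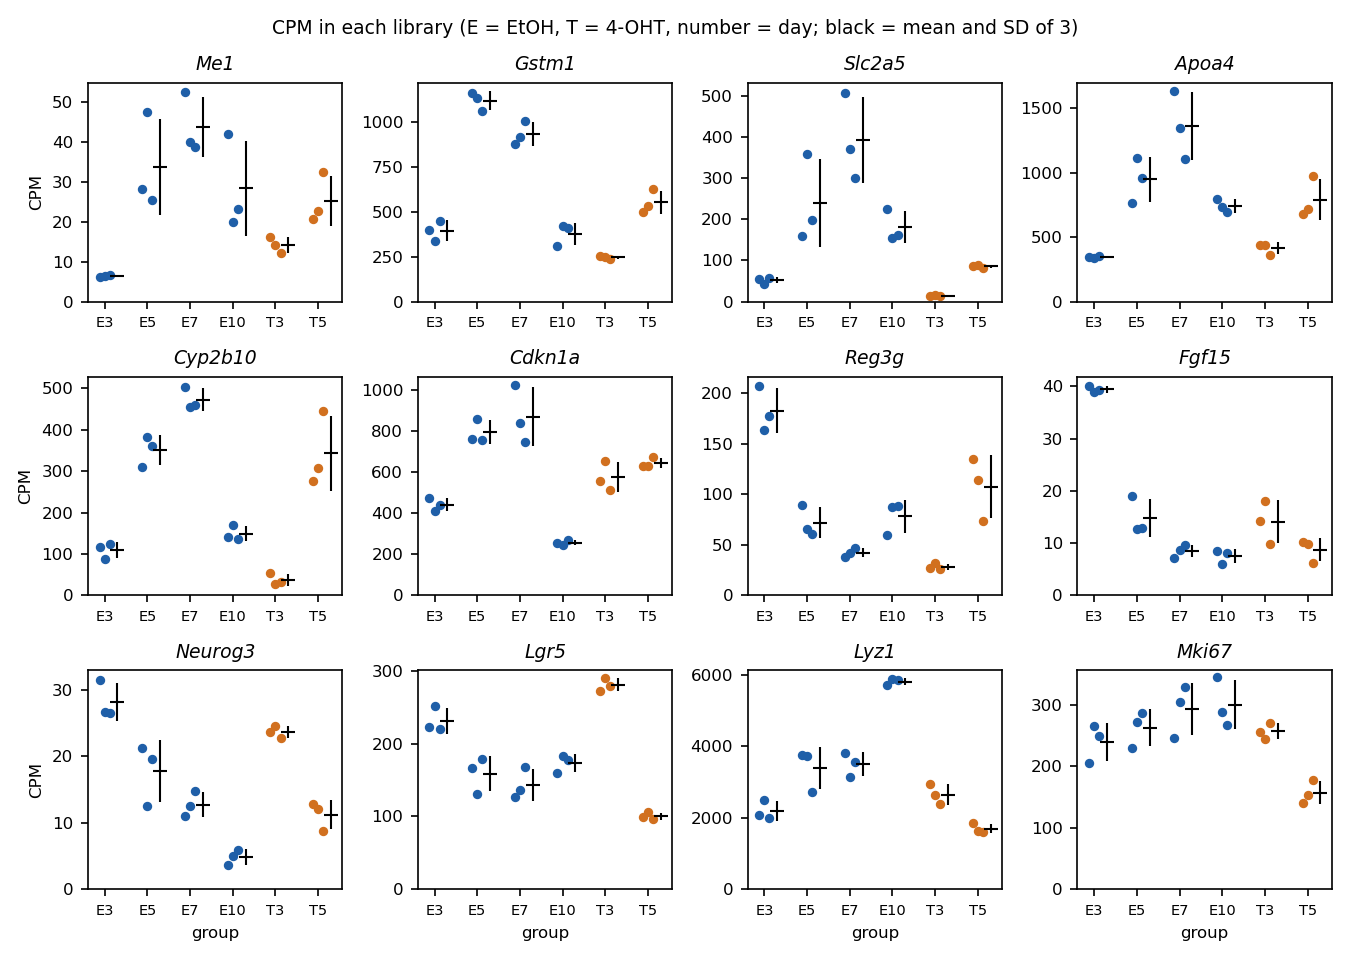
CPM of 12 genes in each library of EtOH days 3, 5, 7 and 10 (E3 to E10, blue) and 4-OHT days 3 and 5 (T3 and T5, orange), with the mean and SD of 3 in black. Reg3g falls from 164 to 207 CPM at day 3 to 60.6 to 89.1 CPM at day 5 in EtOH organoids, whereas Me1 (6.05 to 6.76 CPM, then 25.6 to 47.4 CPM) and Slc2a5 (43.5 to 56.8 CPM, then 159 to 360 CPM) rise.

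Cdk8, the floxed kinase gene, was at 38.6, 40.0 and 39.3 CPM at day 3 and 38.5, 46.1 and 46.5 CPM at day 5, with overlapping groups (0.15, edgeR adjusted p = 0.088). In 4-OHT organoids it was at 37.1, 34.2 and 39.3 CPM and at 44.6, 44.1 and 46.3 CPM, so counts over the whole gene do not separate EtOH from 4-OHT organoids. Cdk19 was at 47.0, 46.4 and 44.0 CPM and at 38.8, 39.8 and 35.6 CPM (-0.27 ± 0.07, edgeR adjusted p = 0.0023), although the label gives it as ko/ko. Which part of either gene is deleted was not given in the sources used here, so these counts check neither allele.

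The direction of change was shared with 4-OHT organoids for part of the DEGs, in a comparison that shares no library. Of the 436 rises 216 (49.5%) also rose in 4-OHT organoids, which is 14.2% of the rises there, while 9.88% of all genes rose there, and 45 fell. Of the 1412 falls 292 (20.7%) also fell, which is 15.4% of the falls there, while 12.3% of all genes fell there, and 83 rose. Within the 9880 protein-coding genes of at least 5 CPM the shares were 57.3% of 281 rises and 20.9% of 345 falls, beside 11% and 9.33% of all genes. Tested directly, the day 3 to 5 change differed between EtOH and 4-OHT organoids in 3120 genes (20.2%), 1392 (9.01%) with the greater change in EtOH organoids and 1728 (11.2%) with the lower.

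After day 5 the EtOH organoids had 88 DEGs to day 7 (0.570% of genes tested), 44 higher and 44 lower (0.285% each), a step within a set of libraries, although the count ran from 3 to 164 as single libraries were left out. Day 7 replicate 2 stood apart, with 531 counts of Col1a1 and 47.0 CPM of mesenchymal markers against 10 to 11 counts and 4.47 to 4.74 CPM in the other day 7 libraries, and there were 7 DEGs without it. Me1, Slc2a5 and Apoa4 averaged 43.7, 392 and 1360 CPM at day 7 and did not pass the test, while Hmox1 rose further, to 42.6 CPM (0.87). From day 7 to day 10 there were 3601 DEGs (23.3%, with 9.39% of genes higher and 13.9% lower), again between sets of libraries. Slc2a5, Apoa4, Cyp2b10, Gstm1, Hmox1 and Cdkn1a fell over that step, by 1.12, 0.88, 1.67, 1.30, 1.22 and 1.76 on the log2 scale. Nox1 rose (0.82), and Me1 (-0.62) and Slc7a11 (0.54) were not DEGs. Of the 20 NRF2 targets 3 fell and 1 rose from day 7 to day 10. The change from day 3 to 5 differed from that of day 7 to 10 in 3731 genes (24.2%; 12.7% higher and 11.4% lower), including 17 of the 20 NRF2 targets.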

How the data were processed

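Poly-A RNA of small intestinal organoids was sequenced as 100 bp paired ends. The authors deposited read counts for each gene, not normalized. The submitters' processing notes name STAR 2.5.2, Subread 1.6.3, featureCounts and mm10, and the strand setting was not given in the sources used here, so overlapping and antisense genes are uncertain. All 24 libraries of the time course (8 groups of 3) were fitted together with edgeR 4.0.16 in R 4.3.3 (filterByExpr, TMM, robust quasi-likelihood F test, Benjamini-Hochberg over 15447 genes). A DEG passed both an adjusted p of 0.05 and a 1.5-fold change. The SE was taken as the size of the log2 fold change over sqrt(F), and CPM values use library sizes scaled by TMM. Gene symbols and gene types came with the deposited counts, and positions from GENCODE M21 (GRCm38), which matched 513 of 542 identifiers looked up.

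Named genes were the 8 largest rises and falls (protein coding, at least 50 counts on average in the higher group, no predicted models), the first 2 genes of each non-metabolic list, the largest called rise and fall of each list, and Cdk8 and Cdk19. Other list members were named after their values were seen. The members and lists were chosen with earlier results of these data known. Alternatives were DESeq2 1.42.0, limma-voom (limma 3.58.1), upper quartile scaling, no filter, at least 10 counts in every library, a replicate block, fewer libraries in the fit and leaving out each library. Protein-coding genes of at least 5 CPM and cyclic loess normalization were added after seeing the data. Fatty acid oxidation genes are among the results not reported here. The script was tested on simulated data. Sequences are from RefSeq (GRCm38.p6).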

Additional observations from a re-analysis of the deposited data

Results flagged for a closer look

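The change from day 3 to day 5 in EtOH organoids differed from the change from day 7 to day 10 in 3731 genes, with edgeR's quasi-likelihood test of the difference (1963 with the greater and 1768 with the lower change in the earlier step). Both steps run between sets of libraries that differ in mitochondrial transcripts. The change from day 3 to day 5 differed between EtOH and 4-OHT organoids in 3120 genes (1392 greater and 1728 lower in EtOH organoids), and only the EtOH step runs between sets. The part of the sets in these differences was not tested.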

How the results depend on the processing

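For day 5 against day 3, at least 10 counts in every library gave 1187 DEGs (872 lower), protein-coding genes of at least 5 CPM gave 666 (216 higher and 450 lower), and cyclic loess gave 785 lower. The first 2 of these settings test fewer genes, and cyclic loess tests the same genes. The protein-coding setting also rescaled the libraries, and the cause was not tested. Leaving out a library gave 1390 to 2016 DEGs. With protein-coding genes only, the change against day 7 to 10 had 1098 lower, and the change against 4-OHT organoids had 2027 DEGs with 1049 lower.

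For day 7 against day 5, DESeq2 gave 140 DEGs (67 higher and 73 lower), no filter 184 (103 and 81), the 12 EtOH libraries alone 47 (22 and 25), the 6 libraries compared 12 (7 and 5), and protein-coding genes 56 (25 higher). Leaving out a library gave 3 to 164 DEGs, with 1 to 109 higher and 2 to 89 lower: 3 without EtOH day 5 replicate 1, 162 without day 5 replicate 3, and 18, 7 and 164 without day 7 replicates 1, 2 and 3. The cause was not tested.

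Some genes that were not DEGs changed sign, and of these Notum moved furthest, from -0.242 to 0.335 with cyclic loess. Upper quartile scaling, which moved the median of all genes to -0.068, gave Top2a -0.043, Atoh1 -0.002 and B2m -0.035. The filter of 10 counts gave Top2a -0.020 and B2m -0.011, protein-coding genes gave Top2a -0.043, Atoh1 -0.002 and B2m -0.034, and DESeq2 gave Fos 0.004. Cyclic loess gave Olfm4 -0.065, Mki67 -0.006, Top2a -0.122, Mmp7 0.000, Tff3 -0.011, Notum 0.335 and B2m -0.142. Over left-out libraries B2m ran from -0.017 to 0.099, Fos from -0.097 to 0.114, Olfm4 from -0.084 to 0.280 and Top2a from -0.111 to 0.106.

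The replicate numbers of the sample titles did not pair the libraries, since deviations of same-numbered libraries correlated at -0.03, -0.08 and -0.01. Columns of the deposited counts number EtOH day 3 replicate 3 otherwise, and that numbering was not tried. With the replicate number as a block, day 5 against day 3 gave 1860 DEGs (442 higher and 1418 lower), and no call of a named gene changed. The depth limits what can be said of genes with few counts.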
